A study of Mus musculus with 16 samples.

Results

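The interleukin-6 family was followed in mouse subchondral bone through 10 genes: the ligands Il6, Il11, Lif and Osm, the receptor chains Il6ra, Il6st, Lifr and Osmr, and the signalling genes Stat3 and Socs3. Members were all non-control probes on the arrays that carry 1 of these gene names, which gave 21 of 56605 probes (10 of 37074 gene names in the files). Of these, 20 probes covering all 10 genes were well above background on at least 4 of 16 arrays and entered the tests, beside 43268 probes in all. Levels are log2 signal intensities minus the 75th percentile of the array, so a level below 0 is dimmer than that percentile. Probes of 1 gene are numbered by their mean level, and levels were not set against each other between probes.

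The study operated on both knees of male wild type C57BL6 mice aged 10 to 12 weeks. The 4 groups of 4 mice were destabilization of the medial meniscus (DMM) taken at 1 week, sham at 1 week, DMM at 6 weeks and sham at 6 weeks. DMM cuts the ligament that holds the medial meniscus and leads to osteoarthritis, and the sham operation opened the joint and exposed that ligament without cutting it. Bone under the cartilage of the medial tibia was cut out by laser from sections of 1 joint per mouse. Mice taken at 6 weeks were also older, so age and time since surgery cannot be told apart.

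The family's ligands act through receptor complexes that share the chain gp130, the product of Il6st. IL-6 binds its own receptor, encoded by Il6ra, while LIF uses gp130 with the LIF receptor and oncostatin M uses gp130 with the oncostatin M receptor. The complexes activate JAK kinases and the transcription factor STAT3, which induces Socs3, an inhibitor that shuts the receptor off. In bone, osteoblasts and osteocytes respond to LIF and oncostatin M, and IL-6 and IL-11 can promote osteoclast formation through osteoblast-lineage cells.

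The arrays' 75th percentiles of signal lay between 329 and 873. The lowest belonged to sham 6-week replicate 2, which also stood far out on the first principal component (209.5, other arrays -80.7 to 86.5). The second highest on that component was DMM 1-week replicate 2. Averaged over its marker list, the level per array ranged from 3.77 to 5.67 for osteoblast genes and from 2.39 to 4.33 for osteoclast genes. The neutrophil list ranged from 6.90 to 8.07 and the skeletal muscle list from -4.99 to -0.88, and these lists rest on different probes, so their levels give no order of cell types. In bulk tissue, fewer cells of a type and less RNA per cell cannot be told apart.

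The stretches of transcript on which 4 of the levels rest are given here as the 60-base probe sequences, written 5′ to 3′ in lower case. They cover 1 ligand and 3 receptor chains, genes whose other probes can be set beside them. Positions are on mm9, and exons and UTRs under the probes were not analysed here.
Il6ra probe 2: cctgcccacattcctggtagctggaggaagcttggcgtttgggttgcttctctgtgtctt
Osm probe 2: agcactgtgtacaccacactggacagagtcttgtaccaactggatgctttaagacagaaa
Il6st probe 2: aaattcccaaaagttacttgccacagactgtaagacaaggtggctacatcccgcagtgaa
Osmr probe 3: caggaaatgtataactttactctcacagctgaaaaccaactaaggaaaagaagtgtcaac
These lie at chr3:89680743-89680802 (minus strand) for Il6ra, chr11:4139500-4139559 (plus) for Osm, chr13:113294595-113294654 (plus) for Il6st and chr15:6791978-6792037 (minus) for Osmr.

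Upstream sequence was read from RefSeq (GRCm38.p6), which held 11 windows of 250 bases before the start of 9 members, without Osm. Il6 is shown because its level ran opposite to that of most members over time, as did those of Il11 and Lif. Its window, chr5:30012864-30013113 on the plus strand, is printed with motif matches in capitals.
Il6 upstream window: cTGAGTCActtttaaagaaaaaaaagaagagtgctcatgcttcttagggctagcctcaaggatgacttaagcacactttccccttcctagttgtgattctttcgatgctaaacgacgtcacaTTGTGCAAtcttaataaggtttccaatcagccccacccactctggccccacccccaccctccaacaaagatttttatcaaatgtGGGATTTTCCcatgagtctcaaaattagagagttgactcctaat
The first run in capitals matches the AP-1 motif TGANTCA, which windows of Il11 and Lif held too. The second matches the C/EBP motif TTGCNNAA on the other strand, and the third, 44 to 35 bases before the start, matches the NF-kappa B motif. Over 32851 such windows of mouse genes, searched on both strands, 6.75% held the first motif, 9.56% the second and 0.356% the third, and the 3 matches do not overlap. The STAT motif TTCNNNGAA was in 7.02% of all windows and, among the 9 members, in that of Socs3 alone. The Socs3 match lay 154 to 146 bases before the start, within chr11:117969501-117969530 on the minus strand. That Socs3 window lay wholly inside the annotated span of its gene, whereas the Il6 window lay wholly outside its gene. The AP-1 match of Il11 was in the window of its start 2, which also lay wholly inside the gene. The window of Il11 start 1 held no match.
Socs3 STAT match: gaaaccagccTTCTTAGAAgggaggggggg
A match describes letters only, and binding was not measured.

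Il6 was the member nearest to background. Il6 probe 1 was well above background on 13 of 16 arrays, with signals of 4.01 to 65.3, and Il6 probe 2 on only 2 of 16, both sham arrays. Il11, Lif and both Osm probes were well above background on all 16 arrays, as were all probes of Il6ra, Lifr, Osmr, Stat3 and Socs3. The remaining exception was Il6st probe 3, which the files assign to a separate cDNA record. It was well above background on 11 of 16 arrays.

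At 1 week no member differed between DMM and sham beyond the spread between mice. In limma 0 of 20 member probes passed an adjusted p of 0.05, against 0% of all 43268 probes, and 0 had an unadjusted p under 0.05, against 0.975% of all probes. DMM and sham values overlapped for all 20, while 0.867% of all probes lay lower without overlap and 0.372% higher. The median difference over members was 0.09, against 0.00 over all probes, with 11 higher and 9 lower.

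Among the ligands at 1 week, Il6 probe 1 had levels of -4.82, -6.98, -4.46 and -5.71 after DMM, against -4.72, -5.21, -5.07 and -4.61 after sham. The values at -6.98 and -5.71 were not well above background, whereas all 4 sham values were. The difference was -0.59 ± 0.44 (log2, SE) and was -0.09 without DMM replicate 2. Il11, a gp130 cytokine with its own receptor, stood at -2.63, -2.78, -2.98 and -3.20 after DMM, against -2.58, -2.19, -3.13 and -2.67 after sham (-0.26 ± 0.23). Lif differed by -0.08 ± 0.53 and 4 of its 27 alternative settings changed the sign. Many of the others, such as leaving out a 6-week array, could not change it.

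Osm, the ligand of the Osmr complex, had 1 high mouse after DMM. Osm probe 1 read 0.53, 2.70, 1.32 and 1.30 after DMM, against 0.95, 1.42, 1.09 and 1.45 after sham. Without DMM replicate 2 its difference was -0.17, against 0.24 with it. That array also had the highest Socs3 level (2.54) and the highest level of each Stat3 probe among all 16. On the same array the neutrophil list averaged 8.07, its highest over all arrays, and the erythroid list 1.66 and the osteocyte list 1.40, their lowest; their part in these levels was not tested.

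The receptors split at 1 week. Il6ra probe 1 gave the lowest unadjusted p of any member, with 3.60, 4.51, 3.95 and 4.11 after DMM, against 4.60, 4.55, 4.34 and 4.26 after sham. Of the DMM values 3 lay below all sham values and the other lay among them. The difference was -0.39 ± 0.19 (unadjusted p = 0.0587, adjusted p = 1.00 in limma), and probe 2 gave -0.24 ± 0.21. All 3 probes of Osmr, the signalling chain for oncostatin M, pointed higher after DMM, at 0.22 ± 0.28, 0.16 ± 0.21 and 0.33 ± 0.21, and each did so within both slides. The groups overlapped for each of them. Il6st stood at 0.19 ± 0.31, 0.17 ± 0.19 and 0.58 ± 0.46, and Lifr at -0.13 ± 0.29, 0.08 ± 0.26 and 0.14 ± 0.30.

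The signalling genes did not separate the operations at 1 week. Socs3 read 2.04, 2.54, 1.43 and 0.95 after DMM, against 1.22, 1.81, 1.20 and 1.74 after sham, a difference of 0.25 ± 0.33. The DMM mice covered the sham range and beyond it on both sides. Within slide 1 the difference was 0.78 and within slide 2 it was -0.28. Stat3 gave -0.14 ± 0.21, -0.05 ± 0.18 and -0.42 ± 0.29 over its 3 probes.

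**Figure D1:**
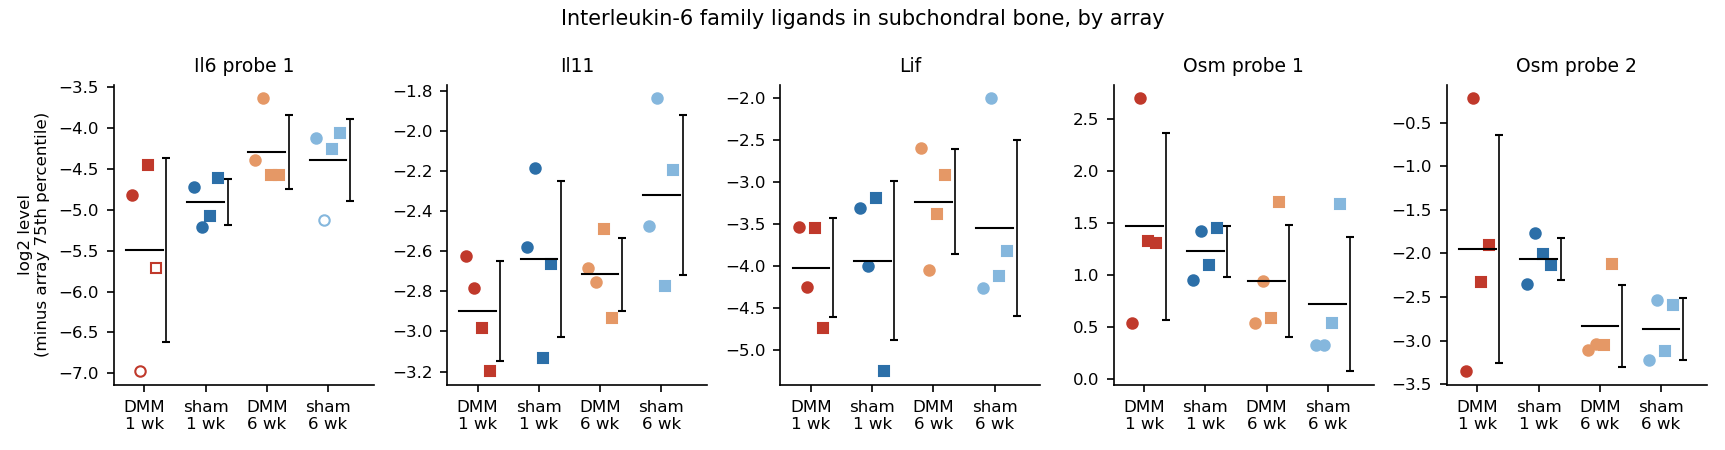
Log2 level (signal minus the array's 75th percentile) of the ligand probes that passed the filter, 1 point per array, in DMM and sham mice at 1 and 6 weeks. Circles are slide 1 and squares slide 2, open points were not well above background, lines are group means and bars 1 SD; the lowest Il6 value (-6.98) and the highest Osm values come from the same DMM array at 1 week.

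At 6 weeks again no member differed between DMM and sham beyond the spread between mice. Of the member probes 0 of 20 passed the adjusted p of 0.05 in limma (0% of all probes) and 0 had an unadjusted p under 0.05 (0.904% of all probes). Groups overlapped for all 20, against 0.384% of all probes lower and 0.125% higher without overlap. The median difference was -0.08, against -0.02 over all probes, with 9 higher and 11 lower.

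Il11 came nearest to separation at 6 weeks. It read -2.69, -2.75, -2.49 and -2.93 after DMM, against -2.48, -1.84, -2.77 and -2.20 after sham, a difference of -0.40 ± 0.23 (unadjusted p = 0.108, adjusted p = 0.999). The highest sham value was on the dim array, and without it the difference was -0.23. Il6 probe 1 read -4.39, -3.64, -4.57 and -4.58 after DMM, against -4.13, -5.13, -4.25 and -4.06 after sham, with only the -5.13 not well above background. Its difference of 0.10 ± 0.44 became -0.15 without the dim array. Lif differed by 0.31 ± 0.53, and Osm by 0.22 ± 0.41 and 0.04 ± 0.47. The Lif difference also leaned on the dim array, which read -2.01 against -4.26 to -3.82 on the other sham arrays. After DMM Lif read -2.60, -4.05, -3.38 and -2.93.

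Osmr did not keep its direction at 6 weeks. The 3 probes gave 0.08 ± 0.28, -0.31 ± 0.21 and -0.14 ± 0.21. The dim sham array held the lowest value of Osmr probe 1 (-1.03), and without it that difference was -0.20. Il6st probe 1 likewise read 0.26 on that array, against 1.76 to 2.13 on the other sham arrays, and its difference of 0.18 ± 0.31 was -0.24 without it. Il6ra gave -0.15 ± 0.19 and -0.04 ± 0.21, Socs3 -0.23 ± 0.33, and Stat3 -0.14 ± 0.21, 0.10 ± 0.18 and -0.17 ± 0.29.

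The DMM effect at 6 weeks minus that at 1 week was tested as a difference of its own. It passed for 0 of 20 members (0% of all probes, and 0 members against 0.726% of all probes at an unadjusted p under 0.05). The lowest member values of p came from Osmr probe 3 at -0.47 ± 0.29 and probe 2 at -0.46 ± 0.29 (limma, adjusted p = 1.00 for both). Averaged over both times, DMM against sham passed for 0 of 20 (0% of all probes), and 0 members had an unadjusted p under 0.05 (1.08% of all probes). Il6ra probe 1 stood at -0.27 ± 0.14 and Il11 at -0.33 ± 0.16 there. With 4 mice a group, the 95% interval of a member's difference at 1 week was narrowest for Stat3 probe 2 (-0.44 to 0.33). It was widest for Lif (-1.21 to 1.06), and the data exclude no difference inside such an interval.

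**Figure D2:**
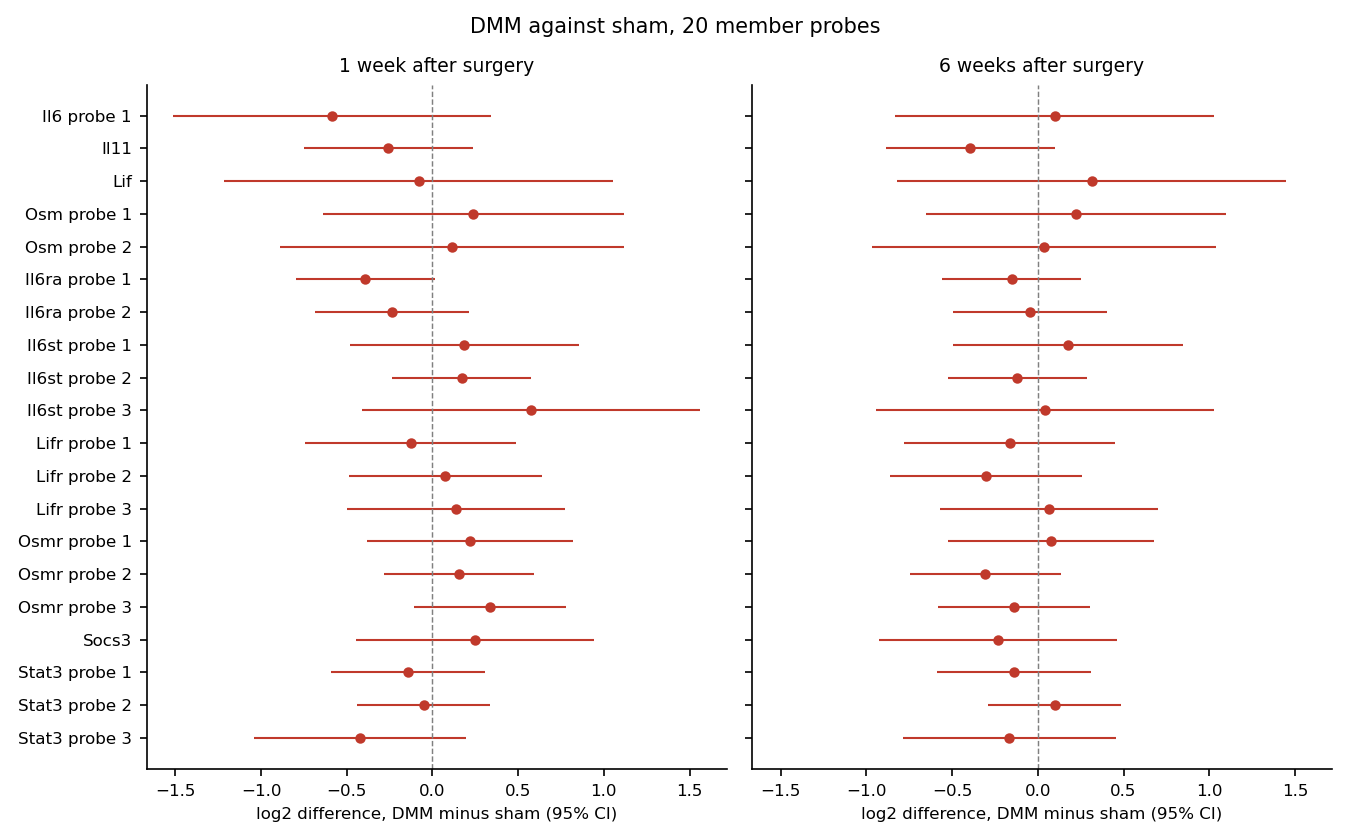
Log2 difference of each member probe, DMM minus sham, with its 95% confidence interval from limma, at 1 week (left) and 6 weeks (right). All 40 intervals cross the dashed line at 0.

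Between 6 weeks and 1 week the family's receptors and signalling genes lay lower and 3 of the 4 ligands higher, although no member passed the adjusted threshold. Averaged over both operations, 17 of 20 member probes had lower levels at 6 weeks, with a median difference of -0.41. Over all probes 48.8% were lower and the median was 0.01. In limma 0 of 20 members passed the adjusted p of 0.05, against 0.832% of all probes. At an unadjusted p under 0.05 stood 10 of the 20 member probes, 9 of them lower, against 16.5% of all probes and 9.39% in the lower direction. Several of these probes measure the same gene and are not independent. The count of 17 was the same without the dim sham array, without any other single array, and in the authors' deposited value table. The size differed between slides. Through the probe of highest mean per gene, the receptors' median was -0.58 within slide 1 and -0.09 within slide 2. For the signalling genes it was -0.91 and -0.28, and for the ligands 0.33 and 0.50.

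Stat3 was lower at 6 weeks on all 3 of its probes. Probe 1 read 3.64, 3.64, 4.15 and 3.84 at 6 weeks after DMM, against 4.04, 4.98, 4.17 and 4.22 at 1 week. After sham it read 3.80, 4.28, 3.93 and 3.81 at 6 weeks, against 4.39, 4.72, 4.39 and 4.48 at 1 week. The sham groups did not overlap, while 1 DMM value at 6 weeks lay inside the 1-week range.

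Stat3 probe 2 read -0.59, -1.11, -0.82 and -0.99 at 6 weeks after DMM, against -0.86, -0.04, -0.60 and -0.38 at 1 week. After sham the levels were -1.16, -0.92, -0.83 and -0.996 at 6 weeks, against -0.39, -0.42, -0.35 and -0.51 at 1 week, again with no overlap. Averaged over operations the 3 probes gave -0.53 ± 0.15, -0.48 ± 0.13 and -0.60 ± 0.21, with adjusted p of 0.0892, 0.0773 and 0.151 in limma. Without the dim sham array the first 2 were -0.59 and -0.49 with adjusted p of 0.0344 and 0.0403. Probe 2 also passed with background correction by normexp and quantile normalization (adjusted p = 0.0477). Over all probes 2405 passed without that array and 715 with that normalization, against 360 with neither change. Over all alternatives the adjusted p ran from 0.0344 to 0.203 for probe 1 and from 0.0403 to 0.170 for probe 2.

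Socs3, the STAT3-induced inhibitor, read 0.75, 0.84, 0.94 and 0.82 at 6 weeks after DMM, against 2.04, 2.54, 1.43 and 0.95 at 1 week. The 6-week DMM mice lay close together and just below all 4 mice at 1 week. After sham it read 1.12, 0.34, 1.77 and 1.05 at 6 weeks, against 1.22, 1.81, 1.20 and 1.74 at 1 week, and these overlapped. Averaged over operations the difference was -0.66 ± 0.23 (adjusted p = 0.156 in limma), with -1.14 within slide 1 and -0.18 within slide 2. Slide 1 held both the dim sham array, at 0.34, and DMM 1-week replicate 2, at 2.54.

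Lifr, the receptor chain for LIF, was lower on its 3 probes by differing amounts. Probe 3, which the files assign to a different Lifr transcript record than the other probes, read 0.64, 0.35, 1.32 and 1.11 at 6 weeks after DMM, against 2.26, 0.89, 1.52 and 2.09 at 1 week. After sham it read 0.79, 0.62, 0.55 and 1.19 at 6 weeks, against 1.63, 1.86, 1.09 and 1.63 at 1 week. In both operations only the top 6-week mice reached into the 1-week range. Its averaged difference of -0.80 ± 0.21, a level of 57.4% of that at 1 week, had the lowest adjusted p of any member (0.0772). Probe 2 gave -0.56 ± 0.19 (adjusted p = 0.138, 0.0499 without DMM 6-week replicate 3 and up to 0.285 over the alternatives), and probe 1 gave -0.42 ± 0.20. Calls over all probes also rose without DMM 6-week replicate 3, as given in the closing section.

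Il6ra, the IL-6 binding chain, had lower levels on both probes. Probe 1 read 3.89, 3.70, 3.81 and 3.63 at 6 weeks after DMM, against 3.60, 4.51, 3.95 and 4.11 at 1 week, with 1 low mouse at 1 week. After sham it read 3.87, 4.22, 3.89 and 3.67 at 6 weeks, against 4.60, 4.55, 4.34 and 4.26 at 1 week, without overlap. The changes with time were -0.29 ± 0.19 after DMM and -0.53 ± 0.19 after sham, and the test of their difference gave 0.24 ± 0.27 (adjusted p = 1.00). Averaged over operations the value was -0.41 ± 0.14 (adjusted p = 0.138, 0.0498 without the dim sham array and up to 0.270 over the alternatives). Without that array 2405 of all probes passed. Probe 2 gave -0.25 ± 0.15.

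The shared chain Il6st and the oncostatin M receptor also had lower levels on average. Il6st probe 2 read -0.04, -0.36, 0.49 and 0.02 at 6 weeks after DMM, against 0.37, 0.71, 0.29 and 0.55 at 1 week. After sham it read 0.06, -0.03, 0.36 and 0.19 at 6 weeks, against 0.50, 0.23, 0.45 and 0.05 at 1 week. Its averaged difference was -0.31 ± 0.13 (adjusted p = 0.265 in limma). Il6st probe 1 gave -0.25 ± 0.22, which was -0.04 without the dim sham array, and probe 3 gave -0.39 ± 0.33 with -0.09 without it. For Osmr the averaged values were -0.42 ± 0.20, -0.29 ± 0.15 and -0.19 ± 0.15. The 3 Osmr probes stood at -0.49 ± 0.28, -0.52 ± 0.21 and -0.43 ± 0.21 after DMM, and at -0.35 ± 0.28, -0.06 ± 0.21 and 0.05 ± 0.21 after sham. That contrast is the one tested above as the difference of DMM effects, which did not pass. The value of Osmr probe 1 after sham leaned on the dim array, at -1.03. The other sham arrays at 6 weeks read -0.19 to 0.48, against -0.08 to 0.53 at 1 week.

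**Figure D3:**
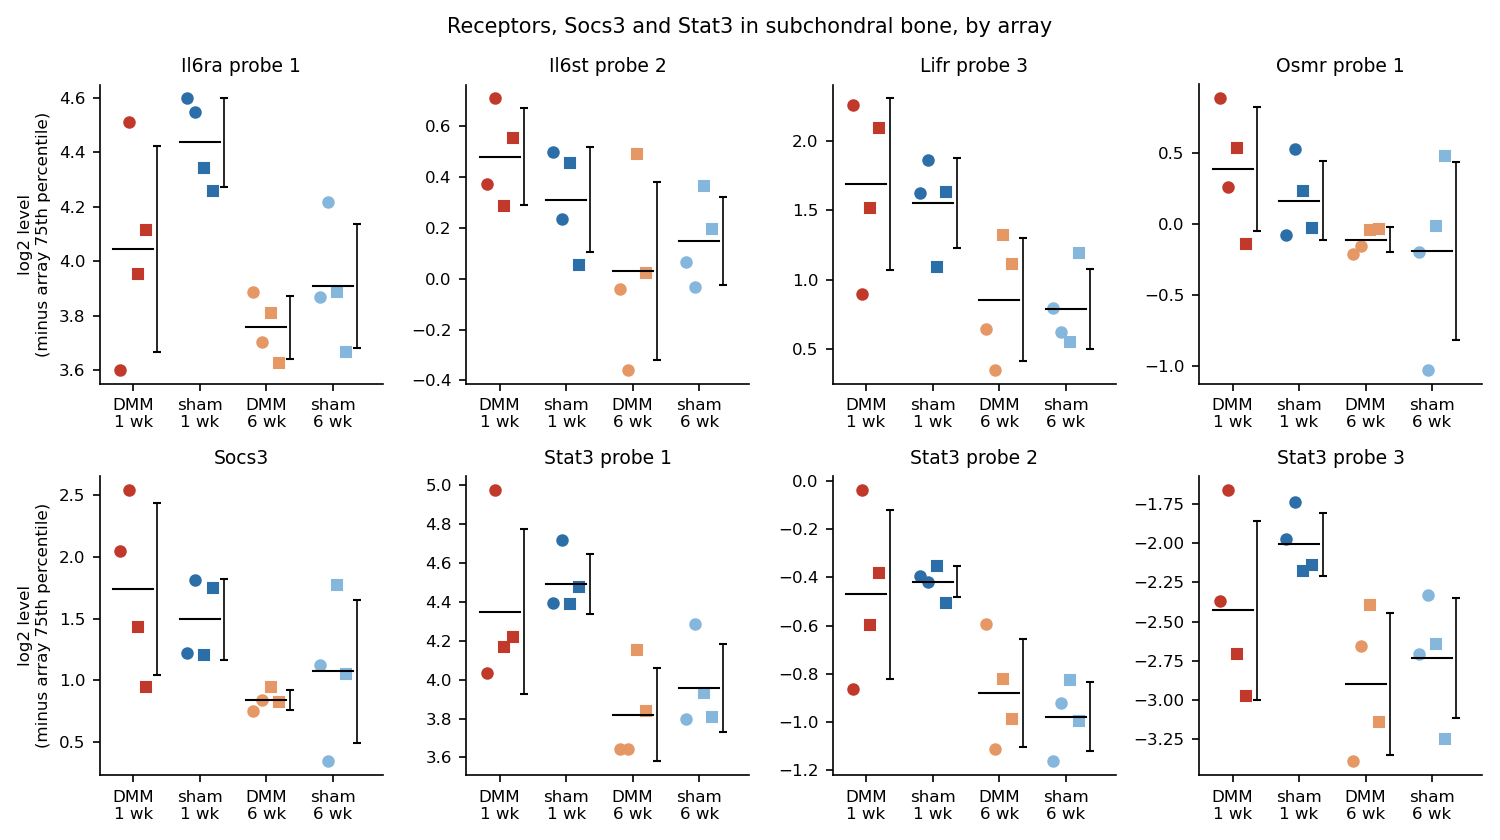
Log2 level of receptor, Socs3 and Stat3 probes, 1 point per array, in DMM and sham mice at 1 and 6 weeks, with circles for slide 1, squares for slide 2, lines for group means and bars for 1 SD. The 6-week means lie below the 1-week means of the same operation in all 8 panels, and the lowest sham point at 6 weeks in the Osmr and Socs3 panels is the dim array.

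Ligands did not share 1 direction over time. Il6 probe 1 was higher at 6 weeks by 1.20 ± 0.44 after DMM and 0.51 ± 0.44 after sham, 0.86 ± 0.31 on average (adjusted p = 0.169). Of the 4 DMM values at 1 week 2 were not well above background, so these differences are not exact. Without the DMM 1-week array at -6.98 the value after DMM was 0.70 and the average 0.61. Lif stood at 0.59 ± 0.38 and Il11 at 0.25 ± 0.16. The highest 6-week Lif value after sham, -2.01, was on the dim array. The other sham arrays at 6 weeks read -4.26 to -3.82, inside the 1-week sham range of -5.26 to -3.19. Osm probe 2 read -3.10, -3.04, -3.05 and -2.13 at 6 weeks after DMM, against -3.35, -0.22, -2.33 and -1.90 at 1 week. After sham it read -3.22, -2.53, -3.12 and -2.59 at 6 weeks, against -2.36, -1.77, -2.01 and -2.13 at 1 week, without overlap. Its averaged difference was -0.84 ± 0.33 (adjusted p = 0.214), and -0.55 without DMM 1-week replicate 2, and Osm probe 1 gave -0.51 ± 0.29.

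The operations were also tested one at a time. After DMM 0 of 20 members passed in limma (0% of all probes), and 8 had an unadjusted p under 0.05 against 10.3% of all probes, 7 of them lower against 5.77%. Socs3 and Il6st probe 3 lay lower without overlap, 2 of 20, against 2.73% of all probes. For Il6st probe 3, which was near background, the gap was narrow. Its highest value at 6 weeks was -4.66 and its lowest at 1 week -4.63, the latter not well above background. After sham 0 of 20 passed (0% of all probes), and 5 had an unadjusted p under 0.05 against 7.34% of all probes, all 5 lower against 4.1%. There 6 of 20 lay lower without overlap (3 probes of Stat3, 2 of Il6ra and Osm probe 2), against 3.49% of all probes. Probes of 1 gene are not independent. For Il6ra probe 2 the gap was narrow too, with a highest value at 6 weeks of -0.438 and a lowest at 1 week of -0.434. Higher levels without overlap occurred in 0 members in either operation, against 2.64% of all probes after DMM and 1.96% after sham.

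**Figure D4:**
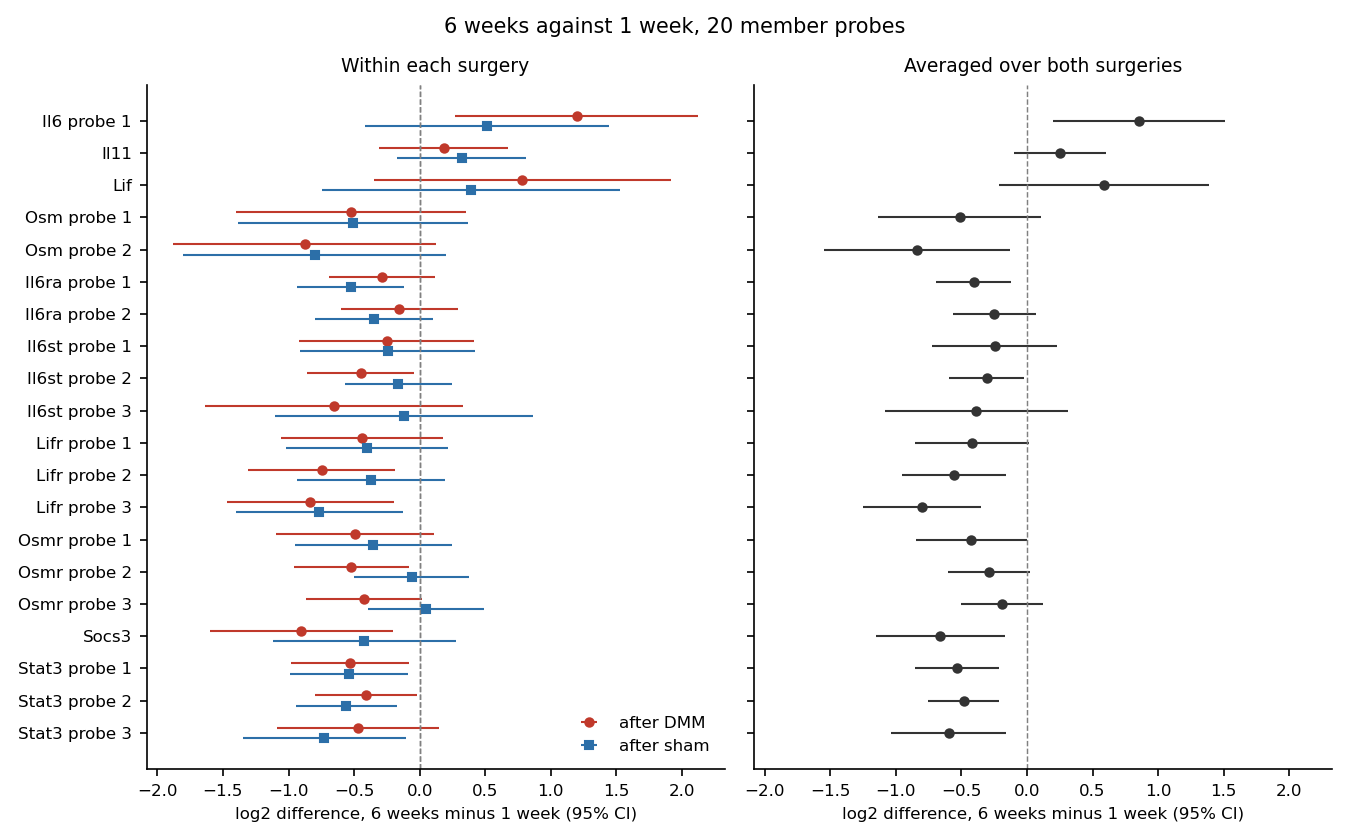
Log2 difference of each member probe, 6 weeks minus 1 week, with its 95% confidence interval from limma, after DMM and after sham (left) and averaged over both (right). On the right 17 of 20 points lie below 0, and Il6, Il11 and Lif lie above it.

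Cell type markers moved over the same interval. All 5 osteoclast markers had lower levels at 6 weeks averaged over operations, with a median of -0.77, and Mmp9 passed the test. The osteoclast list averaged 2.79 to 3.42 at 6 weeks against 3.24 to 4.33 at 1 week after DMM, and 2.39 to 3.69 at 6 weeks against 3.59 to 4.23 at 1 week after sham. All 5 erythroid markers were higher, with a median of 1.22 and Alas2 past the test. That list averaged 4.11 to 5.05 at 6 weeks against 1.66 to 4.19 at 1 week after DMM, and 2.30 to 4.71 against 2.34 to 3.80 after sham. The calls of Mmp9 and Alas2 depended on the setting. Over all probes this comparison gave 0 calls with no filter and 0 without sham 6-week replicate 1, so neither gene passed there. All 4 megakaryocyte markers were higher (median 0.83, 0 past the test), and so they were after each operation. Of the 5 neutrophil markers 4 were higher after DMM (median 0.11) and 4 lower after sham (median -0.22), with 0 past the test. Osteoblast markers had 4 of 5 lower (median -0.51) and B cell markers 4 of 4 higher (median 0.63). Skeletal muscle markers had 4 of 4 higher (median 0.56, with -0.02 within slide 1 and 1.25 within slide 2). Adipocyte markers had 4 of 4 lower after DMM (median -0.17) and 4 of 4 higher after sham (median 1.85). In these lists 0 markers passed the test. The part of these cell types in the members' values was not tested. Between DMM and sham at 1 week, 4 of 4 adipocyte markers had higher values (median 1.18, 0 past the test), with list averages of 0.66 to 3.01 after DMM against -0.48 to 0.89 after sham. At 6 weeks 3 of 4 had lower values (median -0.95, 0 past the test), with list averages of 0.57 to 2.65 after DMM against 0.99 to 3.45 after sham.

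Genes around the family were read from lists of 5 other ligands, 4 other receptors, 10 signal transducers, 8 regulators and sheddases, and 19 STAT3 target genes. Between 6 weeks and 1 week, 1 of these genes passed the test. Timp1, a metalloproteinase inhibitor that STAT3 can induce, had means of 2.67 ± 0.33 at 6 weeks against 4.01 ± 0.31 at 1 week after DMM, and of 2.55 ± 0.74 against 3.57 ± 0.29 after sham (SD, n = 4 each). It fell by 1.18 ± 0.22 on average (adjusted p = 0.0347 in limma). The call was lost when any of 12 of the 16 arrays was left out, and over all alternatives the adjusted p ran from 0.0174 to 0.0979.

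Of the 19 STAT3 target genes, 16 were lower at 6 weeks with a median of -0.38, against 0.01 over all probes, and 1 passed. The median was -0.43 within slide 1 and -0.24 within slide 2. The signal transducers had 7 of 10 lower (median -0.08) and the regulators and sheddases 6 of 8 lower (median -0.14), with 0 past the test in either. Other receptors had 4 of 4 higher (median 0.26, 0 past the test) and other ligands 3 of 5 higher (median 0.06, 0 past the test).

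**Figure D5:**
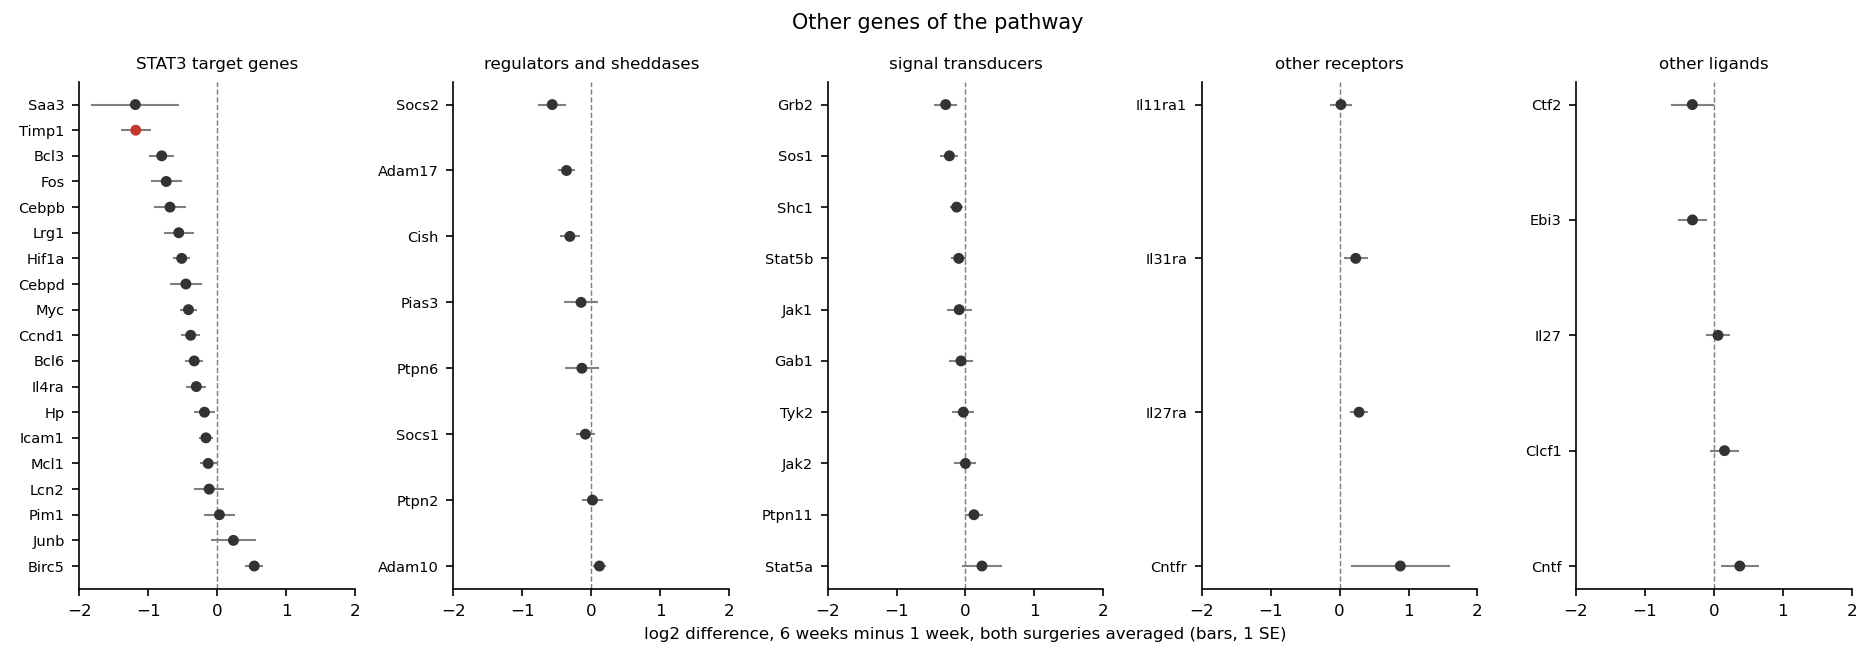
Log2 difference between 6 weeks and 1 week, averaged over both operations, for the genes of 5 pathway lists, each through its probe of highest mean, with bars of 1 SE. The red point, Timp1, passed the adjusted threshold, and 16 of 19 STAT3 target genes lie below 0.

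No gene of these lists passed between DMM and sham at 1 or 6 weeks, where the lowest adjusted p in limma was 1.00 at 1 week and 0.999 at 6 weeks; 0 of the 19 STAT3 targets had an unadjusted p under 0.05 at either time. At 1 week Saa3, an acute-phase gene, had the lowest unadjusted p among the STAT3 targets with higher levels, at 1.61 ± 0.90, with means of -1.35 ± 2.06 after DMM and -2.96 ± 0.60 after sham (SD, n = 4 each). Ctf2 stood at 0.21 ± 0.44, Cebpd at -0.40 ± 0.32, Stat5b at -0.21 ± 0.16 and Ebi3 at -0.30 ± 0.30. The remaining genes taken by that rule at 1 week were Gab1 (0.20), Socs2 (0.08), Adam10 (-0.15) and Cntfr (-0.67). At 6 weeks Lcn2, a neutrophil and acute-phase protein, stood at 0.46 ± 0.30, Jak1 at 0.36 ± 0.26, Ptpn2 at 0.30 ± 0.22 and Sos1 at -0.28 ± 0.19. The others were Socs2 (-0.35), Ccnd1 (-0.25), Clcf1 (-0.38), Il31ra (-0.31), Ebi3 (0.30) and Cntfr (0.39).

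Patterns most like those of 3 members were described over the 16 arrays, with no test, since all genes share the arrays' signal level and tissue content. Il6 probe 1 ran most closely with Fam110c (Pearson r 0.93), Sh2d4a (0.92) and Nmnat3 (0.91). For Osmr probe 1 these were Rdh10 (0.93), Rmnd1 (0.91) and Tnip2 (0.91), and r was 0.83 to 0.88 without the dim sham array. Socs3 ran with Atg9b (0.91), Hoxb4 (0.86) and Nckipsd (0.86).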

How the data were processed

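Deposited scanner files of 16 one-colour Agilent arrays were used (Feature Extraction 10.7.3.1, per the file headers). Their gProcessedSignal is a background-corrected intensity per spot, made by the authors' scanner software. The authors' deposited value table (log2, 50815 probes, limma 3.20.9 per the submitters' processing notes) served as an alternative; how its values were background-corrected and scaled is not given in the sources used. Control spots and spots marked as outliers were left out, spots of a probe averaged (342 probes dropped), and log2 values set against the array's 75th percentile. A probe needed a signal well above background on 4 of 16 arrays.

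A model with 4 group means was fitted across 16 arrays and 43268 probes in limma 3.58.1 (12 residual and 3.13 prior degrees of freedom), 2-sided, Benjamini-Hochberg over all probes, threshold 0.05. The fit was tested on simulated data. Arrays lay on 2 slides, each with 2 arrays of each group, and the number of arrays limits the precision. Replicate numbers follow record order. The members and lists were chosen with earlier results of these data known. Some items of the lists are not reported here and were left out of their counts. Named pathway genes were those past the threshold and, per list and time, the lowest p in each direction for DMM against sham; those most alike were the 3 of highest r for Il6, Osmr and Socs3. R 4.3.3, data.table (version 1.17.8), Python 3.11.15 and matplotlib 3.10.9 were used. Alternatives are in the closing section.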

Additional observations from a re-analysis of the deposited data

Results flagged for a closer look

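Of 80 groups of 4 values (20 member probes in 4 groups), 3 had 1 array far from the other 3, where chance gives about 1 in 20. Osm probe 1 stood at 1.68 on sham 6-week replicate 4, against 0.33 to 0.54 on the other arrays of that group. Osm probe 2 stood at -2.13 on DMM 6-week replicate 4, against -3.10 to -3.04 on the others. Il6ra probe 2 stood at -0.33 on sham 1-week replicate 1, against -0.43 to -0.42 on the others, a small gap in a tight group. None of the 3 lay on the dim sham array.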

How the results depend on the processing

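No member passed between DMM and sham in any comparison under any of the alternatives, and the counts over all probes there were 0 under each alternative too. For 6 weeks against 1 week averaged over operations, 0 of 508 member values under the alternatives changed sign. Of the DMM-against-sham values 19 of 528 did at 1 week (8 member probes) and 33 of 528 at 6 weeks (15 member probes). Many of these values could not change. Changing the filter or taking slide as a block leaves each of these differences as it was. So does leaving out an array of the other time, for DMM against sham. These counts therefore understate how far the signs depend on the arrays. Member probes called in the averaged time comparison were 1 with normexp and quantile normalization and 0 to 3 with 1 array left out (3 without sham 6-week replicate 2, 1 without DMM 6-week replicate 3). Over all probes that comparison gave 715 calls with normexp and quantile normalization, 0 with no filter, 717 with a filter on all 16 arrays and 916 with slide as a block. With 1 array left out it gave 0 to 2405, the last without sham 6-week replicate 2. It gave 469 without sham 1-week replicate 3, 1086 without DMM 1-week replicate 3, 869 without DMM 6-week replicate 3, 11 without DMM 1-week replicate 2, 1 without sham 1-week replicate 1 or 4 or DMM 6-week replicate 2, and 0 without any of the remaining arrays. The time comparison after DMM gave 0 to 3 calls and that after sham 0 to 1. With 1 probe per gene 10 member probes remain by construction, and 7 were lower in each of the 3 time comparisons, 5 between DMM and sham at 6 weeks and averaged, and 6 for the difference of DMM effects. Over all 20 member probes, the count lower for the difference of DMM effects was 13 and ran from 8 to 14 with 1 array left out. No paired analysis was possible because mice are numbered singly, which links no sham mouse with a DMM mouse. The 4 arrays per group limit all comparisons, and Il6 signals near background limit that gene further.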
